A study of Mus musculus with 12 samples.

Results

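Genes that encode the contractile, calcium-handling and metabolic proteins of skeletal muscle fibres were followed in tumors derived from CT-26 cells. They were chosen as a fixed list of 40 gene symbols, all 40 of which were found by their Ensembl identifiers among the 30630 mouse genes listed for every tumor. CT-26 cells come from a colon carcinoma of the BALB/c mouse. The cells were placed under the skin of the right flank, in Matrigel, of male BALB/c mice bought at 4 to 6 weeks of age. RNA-Seq was performed on tumor tissue of 6 mice of the control group and 6 mice of the swimming group, drawn from 10 mice in each group, and both groups carried the same tumor cells and no transgene. Mice in the swimming group swam for at most 30 min, 2 times per day on 6 days per week during 3 weeks. Expression was given by the authors as FPKM, that is, fragments divided by the length of the gene and by the sequencing depth. This scaling does not fix the total of a tumor, and summed FPKM ran from 380139 in swimming 5 to 407109 in control 5. The number of fragments is unknown, and a gene listed at 0 may be present below the depth of that tumor.

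Skeletal muscle fibres are long fused cells filled with sarcomeres, in which myosin filaments pull on actin filaments. Nerve impulses open the calcium release channel of the sarcoplasmic reticulum, calcium binds to troponin C, and troponin T and troponin I then let myosin reach actin. Slow and fast fibres use different genes for most of these proteins, and fast fibres of the mouse are divided further by their myosin heavy chain into types named IIa (Myh2), IIx (Myh1) and IIb (Myh4). These fibres are not part of a colon carcinoma, and thin sheets of skeletal muscle lie under the skin of the flank, which is background and not a result of these data.

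Members of the list were ordered by role into genes of fast fibres (14 genes), genes of slow fibres (4), sarcomere and scaffold genes shared by fibre types (10), calcium release genes (4), energy metabolism genes (6) and myogenic transcription factors (2). Some muscle genes were detected in every tumor, and the level of most of them differed widely between tumors. Acta1, which encodes the actin of skeletal muscle, was 119 FPKM in swimming 5, 88.2 FPKM in control 6 and 73.6 FPKM in swimming 3. In the other 9 tumors Acta1 reached at most 31.0 FPKM, and it was 0.362 FPKM in control 5 and 0.122 FPKM in swimming 6. The highest value of Acta1 was thus 979-fold above the lowest, and the low and the high end of the range each held tumors of both groups.

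**Figure D1:**
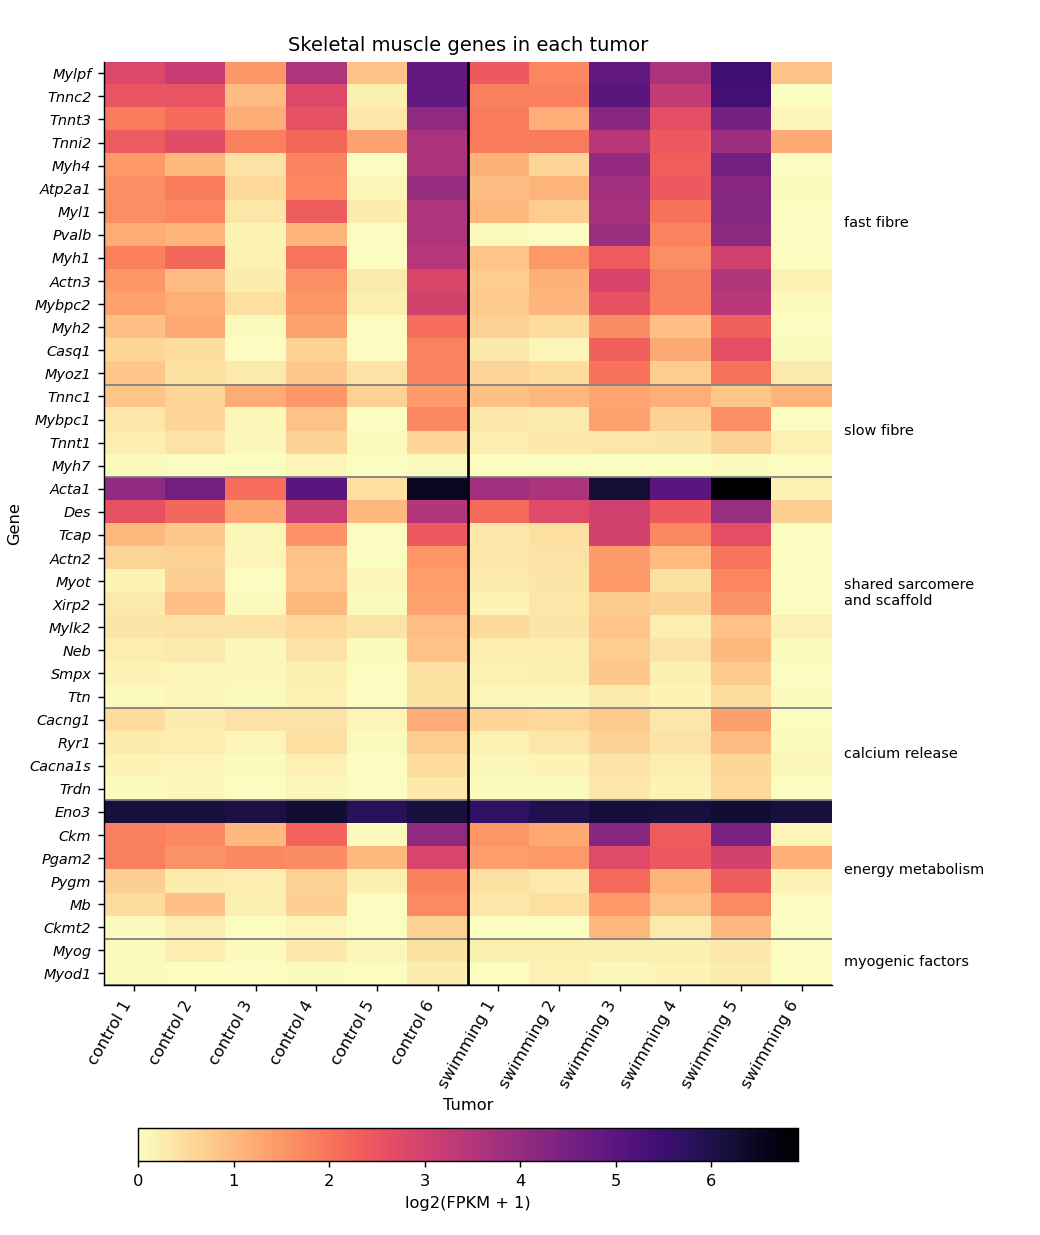
Expression of the 40 skeletal muscle genes (rows, ordered by role) in the 12 tumors (columns), as log2(FPKM + 1) on the colour scale, with a black line between the control and the swimming group. The columns of swimming 5, control 6 and swimming 3 are the darkest, those of control 5 and swimming 6 the palest, and Eno3 is dark in every tumor.

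The same few tumors were high for most of the list. Swimming 5 had the highest value of the 12 tumors for 30 of the 40 genes, control 6 for 5, swimming 3 for 3 and control 4 for 2. The share of all genes that were highest in swimming 5 was not computed, so this count is a description only. Of all genes listed, swimming 5 also had the most above 0 (23974) and control 5 the fewest (22293), with 23066 in swimming 6. Swimming 5 and control 6 were each among the 3 highest tumors for 39 genes and swimming 3 for 34, while the other tumors held such a place for at most 7 genes. At the low end, 19 genes were listed at 0 in swimming 6 and 12 in control 5, against at most 5 in any other tumor. Values of at least 0.1 FPKM were found for 39 genes in control 6, swimming 4 and swimming 5, for 15 in control 5 and for 12 in swimming 6. For the 35 genes that passed the filter on low values, the Pearson correlation of log2(FPKM + 1) with the mean of the other members over the 12 tumors had a median of 0.96 and was above 0.9 for 28 genes. These correlations were not recomputed without the highest and lowest tumors and are a description only. The SD of log2(FPKM + 1) across tumors had a median of 0.783 for these 35 genes, against 0.151 for all 19018 genes that passed the filter, and 25 of the 35 genes were among the 5% of genes with the largest SD. Myog, Eno3, Cacna1s and Tnnt1 had the smallest SD of these genes, at percentiles of 34.4, 60.04, 63.4 and 66.8 among all genes. For genes below 1 FPKM the pseudocount of 1 lowers this SD, and Myog, Cacna1s and Tnnt1 reached at most 0.337, 0.483 and 0.556 FPKM. Tnnt1 still had a 10.2-fold range, against 1.53-fold for Eno3, and Cacna1s had a correlation of 0.964 with the other members.

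The bases before the start of 3 members are given here, Acta1 and Myh4 as genes that rose and fell with the list and Eno3 as the member with the smallest fold range. They are the 250 bases before the RefSeq start in GRCm38.p6, written 5′ to 3′ on the strand of the gene. Acta1 lies on the minus strand (chr8:123894776-123895025), Myh4 on the plus strand (chr11:67237562-67237811) and Eno3 on the plus strand (chr11:70656926-70657175).
Acta1: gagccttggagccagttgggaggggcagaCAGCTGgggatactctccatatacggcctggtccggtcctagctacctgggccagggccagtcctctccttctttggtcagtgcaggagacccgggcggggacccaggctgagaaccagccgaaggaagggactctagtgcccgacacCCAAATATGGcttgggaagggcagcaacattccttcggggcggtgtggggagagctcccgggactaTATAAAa
Myh4: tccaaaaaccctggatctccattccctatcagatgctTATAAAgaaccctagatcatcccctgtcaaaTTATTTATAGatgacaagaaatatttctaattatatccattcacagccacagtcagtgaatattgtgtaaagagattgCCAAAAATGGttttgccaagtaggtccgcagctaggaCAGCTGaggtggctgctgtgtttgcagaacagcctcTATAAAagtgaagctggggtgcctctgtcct
Eno3: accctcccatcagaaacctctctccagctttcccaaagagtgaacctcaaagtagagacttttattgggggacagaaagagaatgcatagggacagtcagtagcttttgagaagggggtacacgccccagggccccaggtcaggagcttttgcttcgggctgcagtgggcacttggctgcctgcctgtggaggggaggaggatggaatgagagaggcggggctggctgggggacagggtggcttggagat
Capitals mark matches, on either strand, to 5 motifs: CAGCTG (an E-box form that myogenic factors are known to bind), CACCTG (another E-box form), TATAAA, the MEF2 site and the CArG box of serum response factor. In Myh4 the MEF2 match and a reverse-strand TATAAA match share bases. Acta1 held CAGCTG starting 221 bases, a CArG box 73 bases and TATAAA 7 bases before the start, and Eno3 held none of the 5 motifs in this window. Windows were found for 29 of the 40 members, and some had several starts, which gave 33 windows. CAGCTG was in 15 of these 33 windows (45.5%) and in 13% of all 32851 windows of this length, and the MEF2 site was in 6 (18.2%) and in 2.92%. CACCTG was in 24.2% of the members' windows and 17.2% of all windows, TATAAA in 15.2% and 12.4%, and the CArG box in 6.06% and 1.47%. A match describes the letters only and not a bound site.

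Fast fibre genes made up much of the signal that varied between tumors. Mylpf, the regulatory myosin light chain of fast fibres, was the most abundant of them and ranged from 0.835 to 27.9 FPKM in the control group (median 7.03) and from 0.851 to 44.2 FPKM in the swimming group (median 7.86). Tnnc2, the fast troponin C, ranged from 0.150 to 27.5 FPKM in the control group (median 4.78) and from 0 to 40.9 FPKM in the swimming group (median 5.45). Tnnt3, the fast troponin T, lay between 0.266 and 16.1 FPKM in the control group (median 3.03) and between 0.0788 and 22.4 FPKM in the swimming group (median 3.99). In each of these genes the tumors of both groups were mixed along the whole range, with swimming 5, swimming 3 and control 6 at the top. Tnni2, the fast troponin I, varied less, from 1.52 to 11.4 FPKM (median 3.94) and from 1.33 to 13.6 FPKM (median 3.57), and it was not listed at 0 in any tumor. Atp2a1, the fast calcium pump SERCA1, lay between 0.0821 and 14.8 FPKM in the control group (median 2.21) and between 0.0314 and 17.7 FPKM in the swimming group (median 2.73). Myl1, the essential light chain, lay between 0.188 and 10.8 FPKM (median 2.25) and between 0 and 18.0 FPKM (median 2.08). Thus the pump and the light chain were also highest in swimming 5, swimming 3 and control 6, with control 6 above swimming 3 for Atp2a1. Casq1, the calcium store protein calsequestrin, was between 0 and 2.46 FPKM in the control group (median 0.449) and between 0.0240 and 5.23 FPKM in the swimming group (median 0.787). Mybpc2, the fast myosin-binding protein C, was between 0.146 and 6.77 FPKM (median 1.42) and between 0.0518 and 9.38 FPKM (median 1.84). Pvalb, the soluble calcium buffer parvalbumin, was 16.4, 13.5 and 10.6 FPKM in swimming 5, swimming 3 and control 6, at most 2.49 FPKM elsewhere, and listed at 0 in control 5, swimming 2 and swimming 6. Swimming 5 was thus highest for all 3 genes, and control 5 and swimming 6 were among the lowest. Actn3, the fast-fibre alpha-actinin of the Z-disc, and Myoz1, which binds it, peaked at 10.4 and 3.12 FPKM in swimming 5.

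Slow fibre genes were low in every tumor. Myh7, the slow myosin heavy chain, was listed at 0 in 8 of 12 tumors, and its highest value was 0.0930 FPKM in control 4. Tnnt1, the slow troponin T, was between 0.0545 and 0.538 FPKM in the control group (median 0.242) and between 0.127 and 0.556 FPKM in the swimming group (median 0.248). Mybpc1, the slow myosin-binding protein C, which fast fibres are also known to express, was between 0 and 2.28 FPKM (median 0.377) and between 0 and 2.02 FPKM (median 0.413). Its highest values were in control 6, swimming 5 and swimming 3, the tumors in which fast fibre genes were high. Tnnc1, the troponin C of slow fibres and heart, behaved otherwise. Tnnc1 was between 0.524 and 1.82 FPKM in the control group (median 1.06) and between 0.785 and 1.49 FPKM in the swimming group (median 1.08), a 3.46-fold range over all tumors. In swimming 6, where Tnnc2 was listed at 0, Tnnc1 was 1.12 FPKM, and in swimming 5, where Tnnc2 was 40.9 FPKM, it was 0.785 FPKM. The correlation of Tnnc1 with the mean of the other members over the 12 tumors was 0.336, the lowest of the 35 genes, followed by 0.561 for Eno3.

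Fast and slow partners of the same protein were set side by side within each tumor. Tnni2 was above Tnni1, the slow troponin I, in 12 of 12 tumors, with medians of 3.94 and 0.197 FPKM over all tumors, and Mybpc2 was above Mybpc1 in 12 of 12. Tnnt3 was above Tnnt1 in 11 of 12 tumors, and swimming 6 was the exception (0.0788 against 0.127 FPKM). Mylpf was above its slow partner Myl2 in all 12 tumors, and Myl2 was listed at 0 in 10 of them. Myl3, the slow partner of Myl1, was above 0 in control 6 only, at 0.0363 FPKM. For Tnnc2 and Tnnc1 the order turned, since the fast gene was higher in 9 tumors and the slow gene in control 3, control 5 and swimming 6. Casq1 was above Casq2 in 10 tumors. Atp2a2, the SERCA2 pump of slow fibres that most other cells also use, was above Atp2a1 in all 12 tumors and between 70.5 and 91.7 FPKM, so this pair does not compare fibres here.

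The 14 fast genes summed to between 2.71 FPKM in swimming 6 and 235 FPKM in swimming 5, and the 4 slow genes to between 0.632 FPKM in control 5 and 4.50 FPKM in control 6. The fast sum was above the slow sum in every tumor, but the sums hold 14 and 4 genes. By the mean of log2(FPKM + 1) per gene, fast genes were below slow genes in swimming 6 (-0.114). The ratio of the fast to the slow sum was lowest in swimming 6 (2.16), control 5 (5.89) and control 3 (5.95). It was highest in swimming 5 (69.5), swimming 3 (50.4) and control 6 (35.9). On the log2 scale the ratio had a median of 4.25 in the control group (from 2.56 to 5.16) and 4.28 in the swimming group (from 1.11 to 6.12). The ratio was lowest in the 3 tumors with the lowest fast sums. Tnnc1 made up most of the slow sum in those tumors, but also in control 1, control 4, swimming 1, swimming 2 and swimming 4. Without Tnnc1 the slow sum was 0.142 FPKM in control 3, 0.0545 FPKM in control 5 and 0.127 FPKM in swimming 6, and at least 0.416 FPKM elsewhere. With Mylpf and Tnnc1, the most abundant gene of each list, left out, the log2 ratio lay between 3.86 and 6.26, a narrower range that moved the median over 12 tumors from 4.28 to 5.58. The order of the tumors also changed, since control 5 (5.73) and control 3 (5.59) then lay above control 4 (4.54), swimming 2 (4.88) and control 6 (5.57), while swimming 6 stayed lowest and swimming 3 and swimming 5 highest. These ratios are a description without a test, because the members were chosen with results of these data known.

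**Figure D2:**
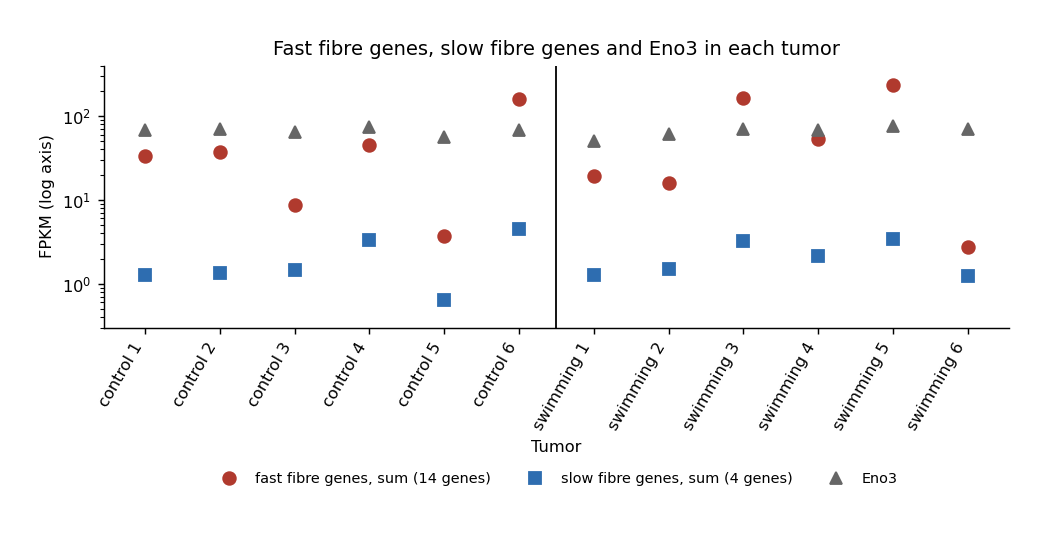
Summed FPKM of the 14 fast fibre genes (circles) and of the 4 slow fibre genes (squares), and FPKM of Eno3 (triangles), on a log axis for the 12 tumors, with a line between the control and the swimming group. The fast sum spans 2.71 to 235 FPKM, the slow sum 0.632 to 4.50 FPKM, and Eno3 stays between 50.2 and 76.8 FPKM.

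Among the fast fibres, the myosin heavy chain genes differed between tumors in their proportions. Myh4, of type IIb, was between 0.00999 and 11.1 FPKM in the control group (median 1.39) and between 0 and 23.1 FPKM in the swimming group (median 2.61). Myh1, of type IIx, was highest in control 6 (9.89 FPKM), ahead of swimming 5 (7.02 FPKM) and swimming 3 (4.22 FPKM), and Myh2, of type IIa, was highest in swimming 5 (3.97 FPKM). Of the summed FPKM of Myh4, Myh1, Myh2 and Myh7, Myh4 made up 70.1% in swimming 3, 67.7% in swimming 5 and 57.8% in swimming 4. In control 2 and swimming 2 the share of Myh4 was 16.7% and 18.9%, and that of Myh1 was 60.2% and 65.2%. Control 6, with a sum of 24.3 FPKM close to the 21.4 FPKM of swimming 3, had 45.9% Myh4 and 40.7% Myh1. The ratio of Myh4 to Myh1 was thus 1.13 in control 6 and 3.55 in swimming 3, at nearly the same total. In the other tumors with a sum above 2 FPKM the ratio was 0.710 in control 1, 0.277 in control 2, 0.794 in control 4, 1.48 in swimming 1, 0.291 in swimming 2, 1.94 in swimming 4 and 3.28 in swimming 5. The ranges of the groups overlapped, and the ratio was looked at after its values were seen and was not tested. In control 3, control 5 and swimming 6 the sums of 0.481, 0.0195 and 0 FPKM were too low to read a proportion. Myh2, Myh1 and Myh4 are neighbours on chromosome 11 (from 67171027 to 67260446 in GRCm38) with very similar coding sequences, so reads can be divided wrongly between them.

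**Figure D3:**
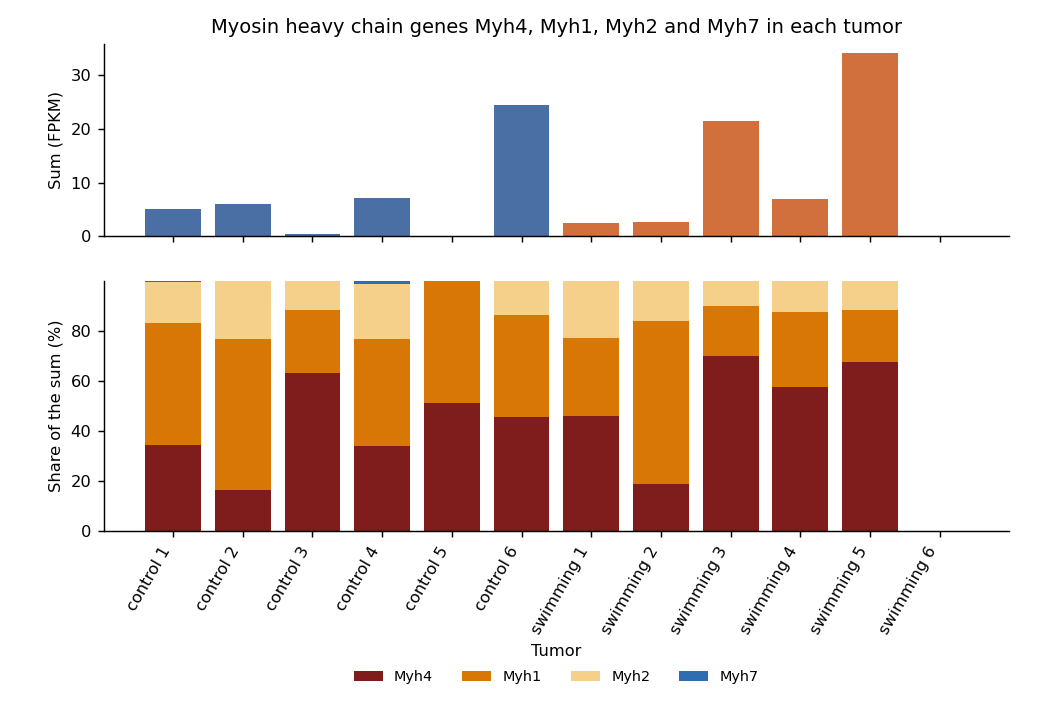
Summed FPKM of 4 myosin heavy chain genes in each tumor (upper bars, blue for control and orange for swimming) and the percent of that sum held by each gene (lower stacked bars). Myh4 holds 57.8 to 70.1% in swimming 3, swimming 4 and swimming 5 and under 20% in control 2 and swimming 2, the shares of control 3 (63.3%) and control 5 (51.4%) rest on sums of 0.481 and 0.0195 FPKM, and swimming 6 has no bar because all 4 genes are listed at 0.

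Of the 10 sarcomere and scaffold genes, 7 had their highest value in swimming 5, and all had lower levels than Acta1 at their highest. Des, which encodes the intermediate filament desmin and is also expressed in smooth muscle, lay between 1.05 and 10.3 FPKM in the control group and between 0.606 and 14.2 FPKM in the swimming group. Tcap, which caps titin at the Z-disc, reached 6.70 FPKM in swimming 3 and 5.23 FPKM in swimming 5. Actn2, Myot and Xirp2, which are also proteins of the Z-disc or of actin bundles, reached 3.01, 2.37 and 1.93 FPKM in swimming 5. The giant proteins of the sarcomere were low per length: Neb, which runs along actin, reached 1.00 FPKM, and Ttn, which spans from the Z-disc to the M-line, reached 0.404 FPKM, both in swimming 5. Smpx, a small protein of the muscle cytoskeleton, was between 0 and 0.333 FPKM in the control group (median 0.0893) and between 0 and 0.753 FPKM in the swimming group (median 0.151). Its highest values were in swimming 3 and swimming 5. Mylk2, the kinase of skeletal myosin light chain, ranged from 0.121 FPKM in swimming 6 to 0.920 FPKM in control 6 and was 0.169 FPKM in swimming 4, where Acta1 was 31.0 FPKM. Xirp2 was higher in control 4 (1.04 FPKM) and control 2 (0.859 FPKM) than in swimming 3 (0.686 FPKM), so the order of tumors was not the same for every gene.

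Calcium release genes were low, and 3 of the 4 passed the filter of 0.1 FPKM in 6 tumors. Ryr1, the calcium release channel, reached 0.930 FPKM in swimming 5 and 0.634 FPKM in control 6. Cacna1s, the voltage sensor that opens it, was between 0 and 0.419 FPKM in the control group (median 0.106) and between 0.0595 and 0.483 FPKM in the swimming group (median 0.144). Cacng1, a further subunit of the voltage sensor, was between 0.0842 and 1.28 FPKM (median 0.308) and between 0 and 1.64 FPKM (median 0.486). Trdn, which links the channel to calsequestrin, was at most 0.456 FPKM. In all 4 genes swimming 5 was highest, as it was for most fast fibre genes.

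In energy metabolism, Eno3, which encodes the muscle form of the glycolytic enzyme enolase, stood apart. Eno3 was the most abundant of the 40 genes by its mean over the 12 tumors, although Acta1 was above it in swimming 5, control 6 and swimming 3. Its mean was 66.8 ± 6.35 FPKM (SD, n = 6) in control tumors and 65.9 ± 9.35 FPKM (SD, n = 6) in swimming tumors. The highest tumor was 1.53-fold above the lowest. In swimming 6 and control 5, where Acta1 was below 1 FPKM, Eno3 was 69.7 and 55.5 FPKM. Ckm, the cytosolic creatine kinase of muscle, followed the fibre genes instead and was 21.2 FPKM in swimming 5, 17.6 FPKM in swimming 3, 15.9 FPKM in control 6 and at most 4.24 FPKM elsewhere. Pygm, the muscle glycogen phosphorylase, was between 0.145 and 2.52 FPKM in the control group (median 0.383) and between 0.107 and 4.15 FPKM in the swimming group (median 0.757). Pgam2, the muscle phosphoglycerate mutase, kept a level of at least 1.04 FPKM in every tumor and reached 6.69 FPKM in swimming 5. The oxidative genes were low, with at most 2.22 FPKM for Mb (myoglobin) and 1.04 FPKM for Ckmt2 (the mitochondrial creatine kinase), which was listed at 0 in 5 tumors.

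All 40 genes together held between 0.0155% (control 5) and 0.133% (swimming 5) of the summed FPKM of a tumor, with a median of 0.0352%. Eno3 alone was 91.6% of the members' sum in swimming 6 and 87.9% in control 5, against 15.3% in swimming 5. Without Eno3 the share ranged from 0.00157% in swimming 6 and 0.00188% in control 5 to 0.112% in swimming 5. The muscle share was therefore a small part of each library, and most of its contrast between tumors was hidden in the sum by Eno3.

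Myogenic transcription factors were close to 0. Myod1 was listed at 0 in 5 tumors and was at most 0.191 FPKM (control 6). Myog, or myogenin, which acts when muscle precursors fuse, was between 0.0376 and 0.337 FPKM in the control group (median 0.111) and between 0 and 0.234 FPKM in the swimming group (median 0.155). Genes of muscle precursor cells and of muscle formation were looked at beside them in a list of 11. Pax7 and Myf5, which mark satellite cells, were each listed at 0 in 11 of 12 tumors, with at most 0.00985 and 0.0280 FPKM. Myh3, the embryonic myosin heavy chain, was at most 0.325 FPKM, and Pax3, the most abundant gene of that list, was between 0.513 and 0.976 FPKM in all tumors. Only 3 of the 11 genes passed the filter, and 0 of these passed an unadjusted p below 0.05 in either direction.

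To determine whether skeletal muscle genes differed after swimming, the groups were compared with limma on log2(FPKM + 1), over the 19018 genes that reached 0.1 FPKM in 6 or more tumors. Of the 40 members, 35 passed the filter, and Ckmt2, Myh7, Ttn, Trdn and Myod1 did not. By limma, 0 of the 35 passed an unadjusted p of 0.05, and the lowest unadjusted p was 0.166 for Smpx (adjusted p = 0.909). Over all genes tested, 3.11% passed that threshold with higher and 2.46% with lower expression after swimming. Similarly, 0 members had a fold change above 2 together with an unadjusted p below 0.05, as had 0.105% of all genes tested, and the groups overlapped in all 40 members, whereas they did not overlap in 0.147% of all genes tested. After Benjamini-Hochberg adjustment of the limma p-values, 0 of the 19018 genes passed 0.05, although 591 higher and 467 lower genes had passed it unadjusted.

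The estimates were wide because tumors of the same group differed so much. Acta1 had a log2 fold change of 0.51 (standard error 1.16), with a 95% interval from -1.997 to 3.01 (two-sided exact permutation p = 0.712). For Myh4 the log2 fold change was 0.73, with an interval from -1.02 to 2.49 (two-sided exact permutation p = 0.437), and it was 0.23 without swimming 5 and 1.18 without control 6. It was the largest of the members with a pseudocount of 1, whereas that of Casq1 was larger with a pseudocount of 0.1 or 0.01. For Mylpf it was 0.37, with an interval from -1.42 to 2.16 (two-sided exact permutation p = 0.682). The intervals include a 2-fold difference in either direction for these genes, so such a difference could not be told from none. For Eno3 and Tnnc1 the interval was narrower. Eno3 had a log2 fold change of -0.03, with an interval from -0.23 to 0.18, and Tnnc1 one of 0.01, with an interval from -0.33 to 0.36. Tnnc1 was not a stable gene, since its SD of log2(FPKM + 1) was at percentile 86.4 of all genes tested, against 60.04 for Eno3. Its values lay near 1 FPKM, where a pseudocount of 1 makes differences smaller. Casq1, Pygm and Cacna1s had the smallest unadjusted p of their roles, at 0.291, 0.303 and 0.387, with log2 fold changes of 0.52, 0.44 and 0.09. These fold changes depended on the pseudocount. They were 0.94, 0.76 and 0.45 with a pseudocount of 0.1, and 1.61, 0.83 and 1.06 with 0.01. Among all 40 genes the smallest two-sided exact permutation p was 0.253 (Smpx, higher than the control median in 5 of 6 tumors of the swimming group), where the smallest possible is 0.00216.

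The log2 fold change was above 0 for 32 of the 35 members and below 0 for Myh1, Xirp2 and Eno3, with a median of 0.21, against a median below 0.01 and 9832 of 19018 genes above 0 over all genes tested. The members share the order of the tumors, so the 32 genes do not count as separate observations. Without swimming 5 the median was -0.02, without swimming 3 it was 0.06, without control 5 it was 0.06 and without control 3 it was 0.11, whereas it was 0.41 without control 6 and 0.40 without swimming 6. The direction of the median thus depended on a single tumor.

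**Figure D4:**
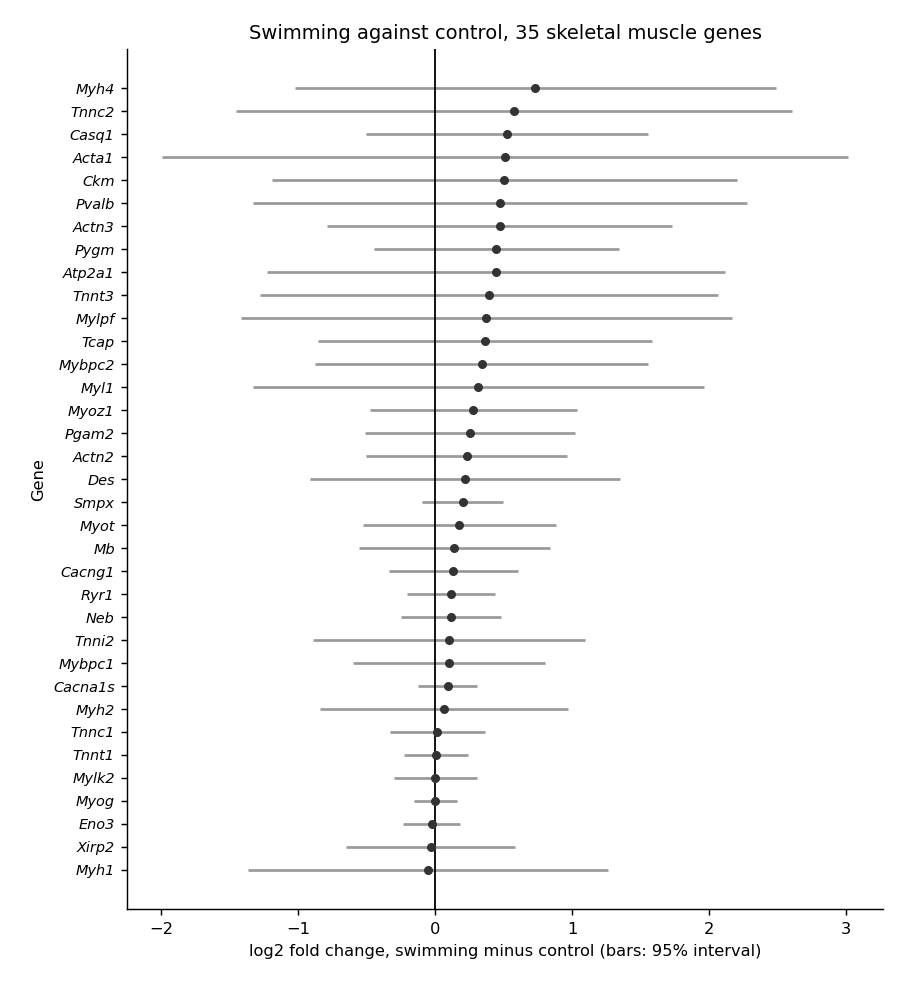
The log2 fold change of swimming minus control for the 35 skeletal muscle genes that passed the filter (points), with 95% intervals from limma (bars). Every interval crosses 0, and the interval of Acta1 runs from -1.997 to 3.01 while that of Eno3 runs from -0.23 to 0.18.

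Other genes of skeletal muscle were read from a list of 44, of which 43 were found and 29 passed the filter. In the swimming group 0 of the 29 were higher and 0 were lower at an unadjusted p below 0.05, and their median log2 fold change was 0.07. Of the 43 genes, 29 had their highest value in swimming 5, for example Klhl41, a stabiliser of the sarcomere (3.93 FPKM), Nrap, an actin-anchoring protein (2.22 FPKM), and Myom1, a protein of the M-line (1.20 FPKM). Cox6a2, a respiratory chain subunit of heart and muscle and the most abundant gene of the list, did not follow this order and was between 4.39 and 12.6 FPKM, with 5.97 FPKM in swimming 5. Of the 6 slow partner genes outside the 40, 4 passed the filter, and 0 had an unadjusted p below 0.05.

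Among all genes tested outside the members, the 10 whose log2(FPKM + 1) was most like the mean standardized profile of the members over the 12 tumors were Fhl1, Smyd1, Sypl2, Eef1a2, Klhl41, Mybph, Nrap, Pdlim3, Ldb3 and Rpl3l. Their Pearson correlations with that profile ran from 0.971 (Fhl1) to 0.943 (Rpl3l), as a description over 12 tumors. Fhl1 was at most 3.34 FPKM and Eef1a2, a translation elongation factor of muscle and neurons, at most 3.96 FPKM. Sypl2, Klhl41, Mybph, Nrap and Ldb3 were also on the list of 44 other muscle genes.

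Markers of other tissues that could lie in a piece of flank tumor were read beside the muscle genes. Thbs4, a matrix protein of tendon and muscle and the most abundant gene of a list of 5 for tendon and fascia, was 11.9 FPKM in swimming 5, 7.84 FPKM in control 6, 0.343 FPKM in control 5 and 0.218 FPKM in swimming 6, so it shared both ends of the muscle order, but it was 2.39 FPKM in swimming 3. Tnmd, which defines tendon cells, was at most 0.173 FPKM. The 8 fibroblast genes summed to 819 FPKM in control 1, 793 FPKM in swimming 5 and 477 FPKM in swimming 3, and to 328 FPKM in control 6. Col1a2 (87.2 to 221 FPKM) had the highest mean of them over the 12 tumors. Col1a1 was 247 FPKM in control 1, 235 FPKM in swimming 5 and 75.8 FPKM in control 6. In control 1 and swimming 5, Col1a1 and Col3a1 (275 and 251 FPKM) were above Col1a2 (210 and 221 FPKM). Other genes of this list had another order, since Dcn was highest in control 4 (51.7 FPKM) and 25.1 FPKM in swimming 5, and Pdgfra was highest in control 2 (7.14 FPKM). The 11 adipocyte genes summed to 204 FPKM in control 1 and 52.9 FPKM in swimming 5 and to at most 23.8 FPKM in the other tumors. Adipoq was 12.6 and 3.69 FPKM in these 2 tumors and at most 0.971 FPKM in the others. Fabp4 (6.62 to 44.7 FPKM) had the highest mean of the list over the 12 tumors. In control 1, however, Cfd was higher, at 103 FPKM. Control 1, the tumor with the most adipocyte and fibroblast transcripts, had an Acta1 of 16.0 FPKM, below the median over 12 tumors. The part of these tissues in the muscle values was not tested.

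**Figure D5:**
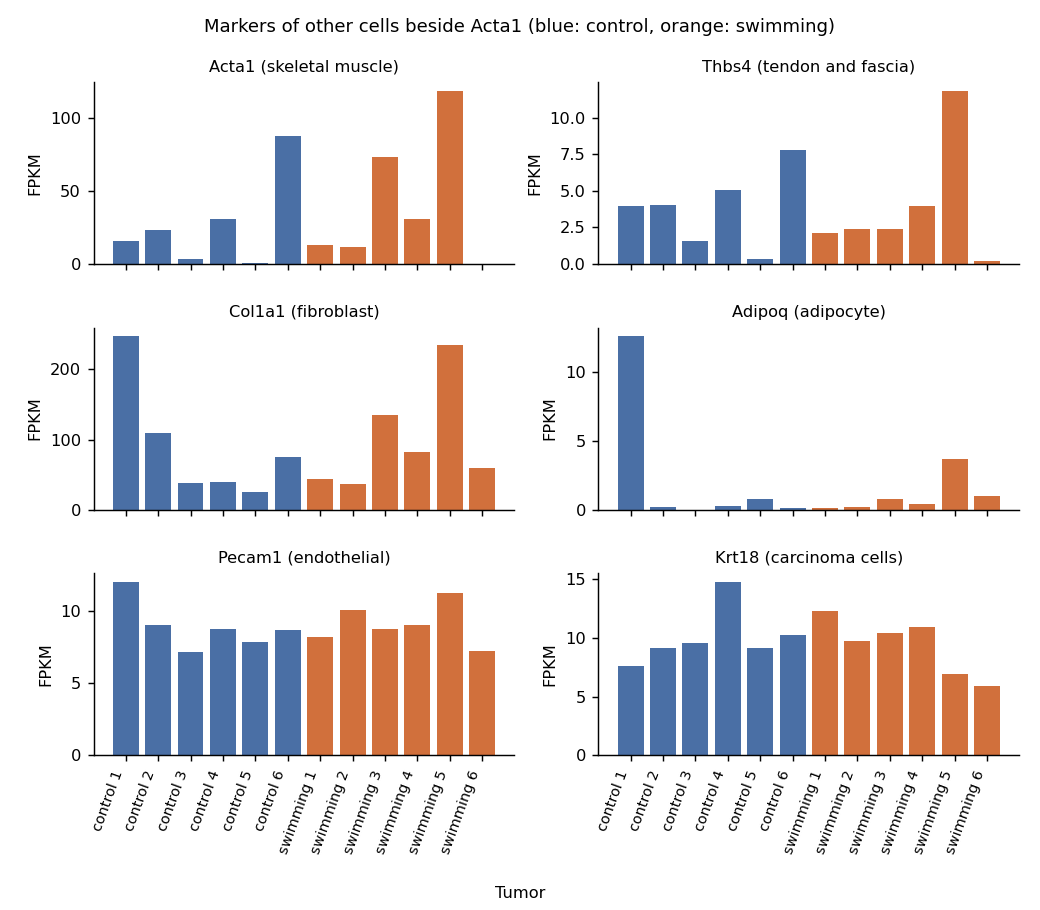
FPKM of Acta1 and of markers of tendon and fascia (Thbs4), fibroblasts (Col1a1), adipocytes (Adipoq), endothelium (Pecam1) and carcinoma cells (Krt18) in the 12 tumors (bars, blue for control and orange for swimming). Thbs4 is high in swimming 5 and control 6 like Acta1, Col1a1 is high in control 1 and swimming 5, and Adipoq is high in control 1.

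Smooth muscle genes (8 of 10 passed the filter) had Smtn as their most abundant gene (13.7 to 23.1 FPKM) and summed to between 25.2 and 59.1 FPKM, with 59.1 FPKM in swimming 5, 55.2 FPKM in control 1, 42.8 FPKM in swimming 3, 37.7 FPKM in control 2 and 36.9 FPKM in control 6. Of these 10 genes, 8 had their highest value in swimming 5. The 7 endothelial genes, led by Cdh5 (11.3 to 18.3 FPKM), summed to between 26.3 FPKM in control 3 and 45.5 FPKM in control 1, with 42.2 FPKM in swimming 5. Of these 7 genes, 3 had their highest value in swimming 5, among them Vwf (0.805 FPKM) and Tek (2.13 FPKM). Of the peripheral nerve genes, Prx was the most abundant and lay between 5.17 FPKM in control 4 and 11.4 FPKM in control 5. Of the keratinocyte genes, Krt14, which defines basal skin cells, was at most 0.0342 FPKM and listed at 0 in 9 tumors, whereas Lgals7, the most abundant of the list, was between 236 and 441 FPKM. Of the cardiac genes, Myh6 and Ryr2, which define heart muscle, were below 0.01 FPKM in all tumors, and Tnnt2 was at most 1.55 FPKM (control 4). Nppb, the most abundant, was between 23.3 and 86.0 FPKM and lowest in swimming 4. It was highest in swimming 6 (86.0 FPKM) and control 5 (67.9 FPKM), where skeletal muscle genes were lowest. In swimming 5, control 6 and swimming 3 it was 26.3, 28.6 and 29.1 FPKM. Actc1, the actin of heart that skeletal muscle also expresses, was 1.19 FPKM in swimming 5, 0.394 FPKM in control 6, 0.288 FPKM in swimming 3 and 0.0385 FPKM in swimming 6, and it was listed at 0 in control 3. By limma, 0 genes tested in these lists and in those of tendon, fibroblasts and adipocytes passed an unadjusted p of 0.05.

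Of 5 genes that stand for the carcinoma cells, Top2a was the most abundant (44.0 to 74.2 FPKM), the transcription factor gene Myc had a log2 fold change of -0.35 (limma, unadjusted p = 0.0104), and the proliferation gene Mki67 had one of 0.30 (limma, unadjusted p = 0.0119). Of 6 genes for factors known to be secreted by muscle, Metrnl was the most abundant (28.5 to 39.6 FPKM), and Mstn (myostatin) was listed at 0 in 9 tumors and reached 0.410 FPKM in swimming 5 and 0.228 FPKM in swimming 3. Il15, a cytokine that muscle and many immune and stromal cells make, had a mean of 1.96 ± 0.466 FPKM (SD, n = 6) in control tumors and of 2.68 ± 0.272 FPKM (SD, n = 6) in swimming tumors. The log2 fold change of Il15 was 0.32 (limma, unadjusted p = 0.00752), with all 6 tumors of the swimming group above the control median. Myc, Mki67 and Il15 did not pass after adjustment, each with 0.889 as the adjusted limma p. Il15 was highest in swimming 5 (3.13 FPKM) and swimming 3 (2.86 FPKM) and lowest in control 5 (1.38 FPKM), tumors at the ends of the muscle order, but it was 2.47 FPKM in swimming 6 and 1.55 FPKM in control 6. The part of muscle transcripts in the difference of Il15 was not tested.

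In bulk tissue, fewer muscle fibres and less RNA per fibre cannot be told apart. Exons of 17 of the 40 members overlap those of another annotated gene on the opposite strand, and the counting was not stated to use strand. Tnnc2 overlaps Ube2c, a mitotic gene at 42.3 to 71.2 FPKM, which was 71.2 FPKM in swimming 5 and 59.5 FPKM in swimming 6. Atp2a1 overlaps Rabep2, at 2.68 to 4.55 FPKM, which was highest in swimming 5. Mb overlaps Apol6, which was 5.499 FPKM in swimming 5, 3.90 FPKM in swimming 6 and 0.434 FPKM in control 5, where Mb was 2.22, 0 and 0 FPKM. The part of reads from the opposite strand in the members' values was not tested. Depth relative to control 1, read from the most frequent ratio between values of weakly expressed genes, was 0.693 in control 2 and at least 0.871 elsewhere. It was 0.959 in swimming 5 and 0.901 in swimming 6, the tumors at the ends of the muscle order.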

How the data were processed

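RNA-Seq was performed on 12 tumors, 6 per group. The authors removed ribosomal RNA, trimmed the reads, mapped them with Hisat2 2.0.5 and used StringTie 1.3.3, and deposited FPKM values per gene (the submitters' notes name hg38 and GRCm38, and the identifiers are of mouse). Symbols and coordinates were taken from GENCODE M21 on GRCm38 by Ensembl identifier, which gave 30578 of 30630 genes a symbol. No tumor was left out, and all members were found.

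The 19018 genes that reached 0.1 FPKM in 6 or more tumors were compared as log2(FPKM + 1) by lmFit and eBayes (trend = TRUE) of limma 3.58.1 under R 4.3.3, with Benjamini-Hochberg adjustment over all of them. The procedure was tested on simulated data. The shifted genes were drawn from genes with a higher mean log2(FPKM + 1) than most members. The simulation therefore does not show which change could be found in the members. Single members were compared by two-sided exact permutation over the 924 divisions into 6 and 6. Python 3.11.15 with pandas 2.3.3 and matplotlib 3.10.9 was used otherwise. Nothing in the labels says how tumors were handled in batches.

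The members and gene lists were chosen with earlier results of these data known. Given in full are, for each role, the most abundant member and that with the smallest p, and the fast and slow pairs. Also named are, in other lists, the most abundant gene and those at an unadjusted p below 0.05, and the 10 genes most like the members. Other genes were named after their values were seen. Of the list genes, Hjv, Myl7, Krt5 and Dsg1a were not matched. Alternatives were pseudocounts of 0.1 and 0.01, no filter, a filter of 1 FPKM, quantile and trimmed-mean scaling, no trend in eBayes, weighted samples, a block for the replicate number, each tumor left out, and other sums for the ratio and the share.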

Additional observations from a re-analysis of the deposited data

Results flagged for a closer look

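Dixon's ratio was used to find tumors at a distance from the rest of their group, in 84 groups of 6 values (the 40 genes on log2(FPKM + 1), the muscle share in percent and the log2 ratio of fast to slow genes). Such a tumor was found in 13 of them, where about 1 in 20, or 4.2, arise by chance, and the 13 are not independent because the members vary together. In 11 cases the tumor was control 6, above the other control tumors. Its values were 0.589 FPKM for Ckmt2, 0.920 for Mylk2, 2.41 for Myoz1, 2.46 for Casq1, 10.6 for Pvalb, 2.52 for Pygm, 0.251 for Trdn, 0.419 for Cacna1s, 1.28 for Cacng1 and 0.191 for Myod1, and its muscle share was 0.0965% of summed FPKM, against at most 0.0442% in the other control tumors. In the swimming group, Myh7 was 0.0203 FPKM in swimming 5 and listed at 0 in the other 5 tumors, and Myog was listed at 0 in swimming 6, with at least 0.151 FPKM in the others. Swimming 5 stood apart by this rule for no other gene. In the same group, swimming 3 was also among the 3 highest of the 12 tumors for 34 of the 40 genes. No cause was tested for these values.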

How the results depend on the processing

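Under 9 alternatives of scaling, filter, pseudocount, weights and block and in the 12 fits that each left out a tumor, 0 members passed an unadjusted p of 0.05 by limma. Under the other pseudocounts and without each tumor, 0 of 40 passed it by the two-sided exact permutation test. The smallest unadjusted limma p of a member in any fit was 0.0625, without swimming 6. Of all genes tested, 1 passed adjustment with sample weights, 3 did without control 4 and 2 without swimming 1, none of them a member. The median log2 fold change of the members lay between -0.0157 and 0.41 over the fits without a tumor and between 0.05 (sample weights) and 0.37 (filter of 1 FPKM, 18 members) over the other alternatives. As the difference of mean log2(FPKM + 1) in place of the ratio of sums, fast genes were 1.15 above slow genes (median over 12 tumors), on a scale that is not a log ratio, and in swimming 6 they were below them (-0.114). Of the members given in full, log2 fold changes that changed sign were those of Cacng1 (-0.0743), Myog (-0.0694) and Myl1 (-0.22) with a pseudocount of 0.01, those of Tnnc1 (-0.00269), Myog (-0.00665) and Tnnt1 (-0.00273) with quantile normalization, that of Myog (-0.000451) with trimmed-mean scaling, and those of Tnnc1 (-0.0122), Mybpc1 (-0.0799), Myog (-0.0302), Tnni2 (-0.11) and Tnnt1 (-0.0323) with sample weights, and the cause was not tested. For the same members, leaving out a tumor gave ranges across 0 for Acta1 (-0.16 to 1.33), Mylpf (-0.0950 to 0.83), Eno3 (-0.0767 to 0.0496), Tnnc1 (-0.0726 to 0.10), Mybpc1 (-0.0824 to 0.32), Cacng1 (-0.0269 to 0.28), Myog (-0.0270 to 0.0463), Tnnt3 (-0.0317 to 0.86), Tnni2 (-0.19 to 0.36), Mybpc2 (-0.0156 to 0.67), Myl1 (-0.15 to 0.70) and Tnnt1 (-0.0519 to 0.0662). Without a tumor, the values of Tnnc2 (0.0717 to 1.15), Atp2a1 (0.0117 to 0.91), Myh4 (0.23 to 1.18), Casq1 (0.22 to 0.76), Pygm (0.19 to 0.68), Smpx (0.11 to 0.27) and Cacna1s (0.0260 to 0.16) stayed above 0. For the other members, differences of single genes were read only with other pseudocounts and without each tumor. With other pseudocounts the difference changed sign for Pvalb (-0.422 with 0.01), Mylk2 (-0.0789 with 0.1 and -0.150 with 0.01) and Myh1 (0.0994 with 0.1 and 0.0548 with 0.01). Without at least 1 of the tumors it changed sign for these 3 genes and for Des, Mb, Myot, Myh2, Xirp2 and Ttn. Tumors carry the numbers 1 to 6 in each group but come from different mice. Same-numbered tumors deviated from the means of their groups with correlations of -0.320 to 0.00588, and 0 tumors correlated best with their own number, so the numbers do not pair them. With the number as a replicate block, 0 members passed an unadjusted limma p of 0.05 (892 genes of all tested, against 1058), and the median log2 fold change was 0.21. Values below about 0.1 FPKM are limited by a depth that FPKM does not give.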

Other observations

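Cox8b, a respiratory chain subunit known from muscle and brown fat and part of the list of other muscle genes, was 9.73 FPKM in swimming 5 and 8.93 FPKM in control 1 and at most 2.14 FPKM in the other tumors. Cidea, a lipid droplet gene of brown and white fat, was 5.52 FPKM in control 1, 1.505 FPKM in swimming 5 and at most 0.0695 FPKM in the others. Krt8, a keratin of simple epithelia, was 129 FPKM in control 4 and at most 19.9 FPKM in the other 11 tumors, while its partner Krt18 was 14.8 FPKM in control 4. These genes were named after their values were seen, and no explanation was tested.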
